A study of Mus musculus with 2 samples.

Results

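The genes of the translation initiation factors (eIFs) and elongation factors (eEFs) were examined for R-loop peaks in mouse neural stem/progenitor cells (NSPCs). All protein-coding genes of the GENCODE M1 annotation (mm9) whose symbol starts with Eif and a digit from 1 to 6, or with Eef1 or Eef2, were taken, which gave 67 of 22367 gene models with 66 different symbols, since Eef2k has 2 models. The rule uses symbols and no measured value, although it was set with earlier results of these data known. The prefix also takes in genes that are not factors in the narrow sense, namely the Argonaute genes, listed in this annotation as Eif2c1 to Eif2c4, the eIF2α kinases, the eIF4E-binding proteins and the kinase of eEF2.

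The primary NSPCs came from frontal brains of C57BL/6 mice at postnatal day 7. They had received 0.5 μM aphidicolin, a DNA polymerase inhibitor that slows replication, for 2 days, according to the methods of the paper, while the sample labels name no treatment. DRIP-seq cuts genomic DNA with restriction enzymes, here 5, pulls down RNA:DNA hybrids by means of the S9.6 antibody and sequences what is recovered. The study made 3 biological replicates, and the 1 deposited list holds 22132 peaks, each given by its chromosome, start and end, with no signal, score or strand. It carries no replicate error and no depth, so the values below describe 1 list, and no difference was tested.

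R-loops are structures in which nascent RNA pairs with the template DNA strand and leaves the other strand unpaired. They are known to form where the non-template strand is rich in G, and at both ends of genes. Initiation factors bring the small ribosomal subunit, the initiator tRNA and the mRNA together, and elongation factors then deliver aminoacyl-tRNAs and move the ribosome along the mRNA. Most of these factors are housekeeping proteins that every dividing cell needs, and several have a paralogue whose use is limited to certain tissues.

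Of the 67 genes, 50 (74.6%) overlapped at least 1 R-loop peak, compared to 39.6% of all protein-coding genes. Gene length and GC content near the transcription start site (TSS) differ between genes, so the other protein-coding genes were sorted into 10 strata by length and 10 by GC content from 2 kb before to 2 kb after the TSS. When the share in each stratum was weighted by the number of translation factor genes in it, 48.0% of genes had a peak, which corresponds to 32.2 of 67. The strata do not match transcription, which the paper found to be higher in active genes with R-loop peaks than in those without. How far transcription enters these shares was not tested. The translation factor genes themselves had a median length of 17.96 kb and a median GC content around the TSS of 49.3%, compared to 15.4 kb and 48.0% for all genes.

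Peaks lay over both ends of these genes. The TSS, taken as the 5′ end of the gene model, was in a peak in 24 genes (35.8%), compared to 14.9% of all protein-coding genes and 18.4% in the same strata. The transcription end site (TES) was in a peak in 17 genes (25.4%), compared to 10.9% and 15.0%. In 8 genes (11.9%) both ends were in a peak, compared to 4.28% of all genes and 5.44% in the same strata. When the start of any protein-coding transcript was accepted, 30 genes (44.8%) had a start in a peak, compared to 17.2% and 20.9%.

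**Figure D1:**
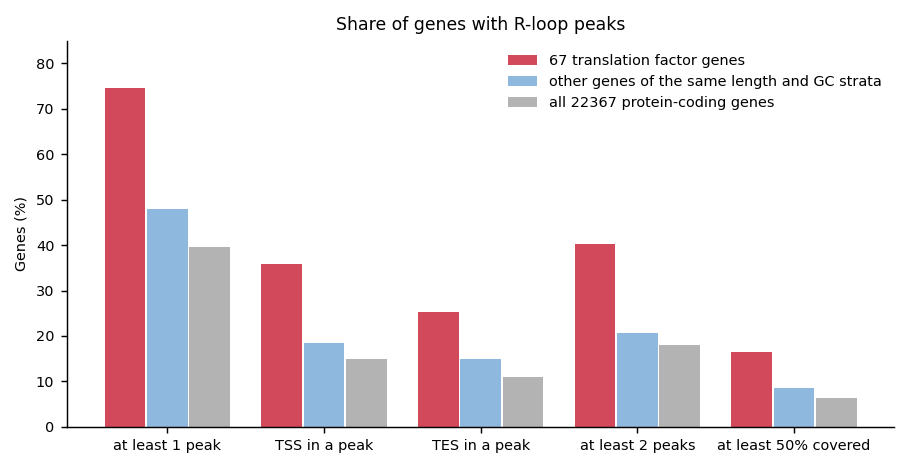
Shares of genes (%) with at least 1 peak, with the TSS or the TES in a peak, with at least 2 peaks and with at least 50% of the length covered, for the 67 translation factor genes, for other protein-coding genes in the same strata and for all 22367 protein-coding genes. The translation factor genes are the highest of the 3 in each measure, with 74.6, 48.0 and 39.6% for at least 1 peak; bars carry no error because there is 1 list.

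Peaks covered a median of 14.4% of the length of a translation factor gene and a mean of 24.6%, compared to a mean of 12.1% in the same strata and 9.01% over all protein-coding genes. Among genes with a peak, the median was 23.1% for translation factors and 10.4% for all genes. Peaks covered at least 50% of the length in 11 genes (16.4%), compared to 6.36% of all genes and 8.52% in the same strata. Summed over all bases, 13.2% of the sequence of the translation factor genes lay in peaks, compared to 3.81% of the sequence of all protein-coding genes. These sums are not matched for gene length, whose mean was 33.2 kb in translation factor genes and 45.5 kb in all genes.

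The share with a peak was above that of other genes in each length class, whereas the share with a peak over an end was close to theirs in the longest genes. Under 10 kb, 13 of 19 translation factor genes (68.4%) had a peak, compared to 22.1% of other protein-coding genes of that length. Between 10 and 30 kb the share was 22 of 29 (75.9%), compared to 43.9%, and from 30 kb it was 15 of 19 (78.9%), compared to 56.8%. The TSS was in a peak in 9 of 19 (47.4%), 11 of 29 (37.9%) and 4 of 19 (21.1%) of the genes in these classes, compared to 12.8, 15.7 and 16.4% of other genes. The TES was in a peak in 42.1, 24.1 and 10.5% of them, compared to 11.3, 13.5 and 8.26%. The share of length covered fell from a median of 33.1% under 10 kb to 20.9% and 9.52% in the longer classes.

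**Figure D2:**
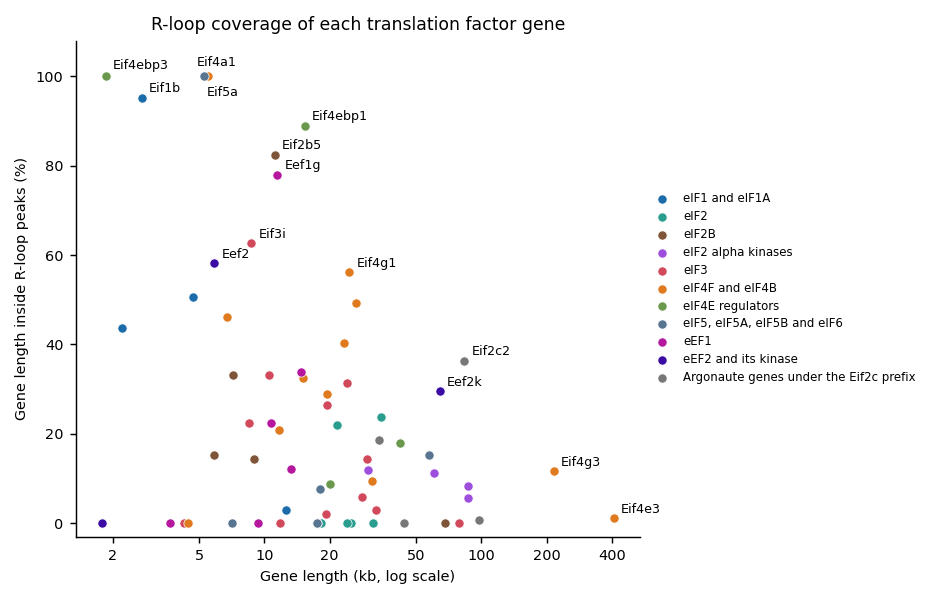
Share of each gene covered by peaks (%, vertical axis) against gene length in kb (logarithmic horizontal axis), with 1 point for each of the 67 translation factor genes. Eif4a1, Eif5a and Eif4ebp3, all under 10 kb, are at 100%, and the long Eif4g3 at 11.7%.

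The 113 peaks in these genes had a median width of 2.21 kb, compared to 1.32 kb for the whole list, and ranged from 0.121 to 24.6 kb. Peaks of at least 5 kb numbered 19 (16.8%, compared to 9.85% of the whole list). The whole list also holds peaks outside protein-coding genes, and overlap with a gene is more likely for a wide peak, so the 2 sets are not alike. By position, 21 peaks crossed only the gene start, 14 only the gene end, 3 covered a whole gene and 75 lay inside. Of those inside, 50 covered both exon and intron sequence, 23 only intron and 2 only exon. Exons made up 25.9% of the gene sequence in peaks, compared to 12.9% of the gene sequence as a whole. Both values are sums over the bases of genes of unlike length and coverage, and were not computed for all protein-coding genes.

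Around the TSS, the share of translation factor genes with a peak rose from 4.48% at 2 kb upstream to a maximum of 41.8% (28 genes) at 100 and 200 bp downstream. Over all protein-coding genes the share went from 5.41% to 15.2% between the same positions. At 2 kb upstream of the TSS the share was thus slightly lower in translation factor genes. At 8 kb downstream the share was 22.4%, compared to 6.95%. Around the TES, the share was 31.3% at 5 kb upstream, 25.4% at the TES, 17.9% at 2 kb downstream and 8.96% at 10 kb downstream. All protein-coding genes had 8.92, 10.9, 10.5 and 5.98% at these positions.

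**Figure D3:**
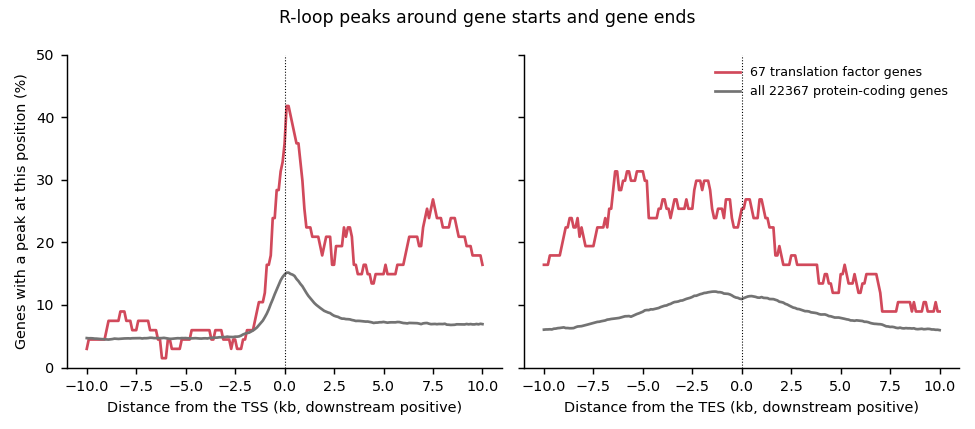
Share of genes (%) with a peak at each distance (kb, downstream positive) from the TSS and from the TES, for the 67 translation factor genes and for all 22367 protein-coding genes. Upstream of 2 kb before the TSS the curve of the translation factor genes crosses that of all genes several times; they reach 41.8% just after it compared to 15.2%, and at 10 kb beyond the TES they are at 8.96% compared to 5.98%. At these distances short genes have already ended.

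In 5 further genes a peak started up to 200 bp after the TSS and so did not count as a peak over it. Such starts were not counted over all protein-coding genes, so this number has no comparison. The distance was 3 bp in Eif3j, 40 bp in Eif2b4, 47 bp in Eif2ak3, 83 bp in Eef2k and 129 bp in Eif1b.

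The non-template strand after the TSS held more G than C in most translation factor genes. GC skew, (G − C)/(G + C) on the coding strand, was positive in the first 1 kb of 53 of 67 genes (79.1%), compared to 64.9% of all genes, with medians of 0.0645 and 0.0390. Its mean was 0.0650, compared to 0.0476 in the same strata. Skew was positive in 21 of the 24 genes with the TSS in a peak, with a median of 0.0778 and a range from −0.101 in Eif4g3 to 0.283 in Eif5a. In the 43 genes without such a peak it was positive in 32, with a median of 0.0562 and a range from −0.215 in Eif3f to 0.193 in Eef1g. The 2 ranges overlap over most of their length. For all protein-coding genes the medians with and without a peak over the TSS were 0.0649 and 0.0345. Across the peaks themselves, skew on the coding strand was positive in 84 of 113 (74.3%), with a median of 0.0417, and the median GC content was 49.7%.

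**Figure D4:**
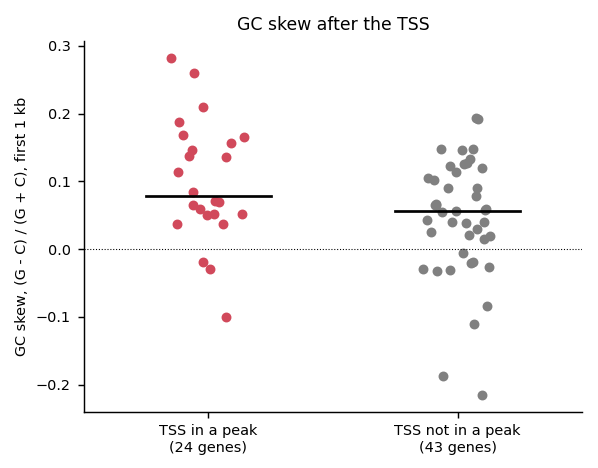
GC skew in the first 1 kb after the TSS (vertical axis, no unit) of the 24 translation factor genes with the TSS in a peak and the 43 without, with 1 point for each gene and a line at the median. The medians are 0.0778 and 0.0562, and the points of the 2 groups overlap.

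To show the sequence inside peaks over a TSS, the intron window of 100 bp with most G relative to C in that peak is printed for 4 genes, Eef2, Eif4a1, Eif4g2 and Eif5a. All windows are in mm9 and read 5′ to 3′ on the coding strand, with runs of at least 3 G in capitals. The Eef2 window is on the plus strand and the others are on the minus strand of the reference.
Eef2, chr10:80639521-80639620: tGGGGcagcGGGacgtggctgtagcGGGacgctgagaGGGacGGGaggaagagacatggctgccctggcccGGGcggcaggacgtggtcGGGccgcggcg
Eif4a1, chr11:69485559-69485658: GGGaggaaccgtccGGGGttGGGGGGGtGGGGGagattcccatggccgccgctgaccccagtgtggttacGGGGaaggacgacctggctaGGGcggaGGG
Eif4g2, chr7:118225765-118225864: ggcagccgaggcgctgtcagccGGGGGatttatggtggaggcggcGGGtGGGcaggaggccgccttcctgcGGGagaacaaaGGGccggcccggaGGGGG
Eif5a, chr11:69734201-69734300: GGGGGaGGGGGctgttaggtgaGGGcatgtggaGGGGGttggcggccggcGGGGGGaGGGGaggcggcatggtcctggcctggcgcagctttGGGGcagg

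These windows start 145, 267, 680 and 1160 bp after the TSS of Eef2, Eif4a1, Eif4g2 and Eif5a, and overlap no annotated exon. They hold 51, 49, 50 and 59 G with 24, 22, 24 and 16 C, in the same order. The Eif4g2 window has 6 runs of GGG or longer and the other windows have 7. The windows were picked for their G, so their content is a description. Of 223670 windows of 100 bp that tile the first 1 kb of all protein-coding genes on the coding strand alone, 75.5% hold at least 1 such run, 4.34% at least 6 and 2.09% at least 7.

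The eIF4F group had the most genes with a peak over the TSS. It consists of the cap-binding eIF4E proteins, the eIF4A RNA helicases and the eIF4G scaffolds that join them, and is taken here with the helicase cofactors eIF4B and eIF4H. A peak was present in 11 of 12 genes and over the TSS in 9, and the group held 36 of the 113 peaks, with a median coverage of 30.7%. Other genes in the strata of this group had a peak in 53.6% and a peak over the TSS in 20.9%. Eif4e1b, the oocyte form of eIF4E, was the single gene of the group without a peak.

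The 3 helicase paralogues differed in how their peaks lay. Eif4a1 (chromosome 11, 69480438 to 69485925, minus strand, 5.49 kb) was fully covered by a peak of 10.4 kb at 69476010 to 69486398. This peak also held the start sites of the neighbouring genes Cd68 and Mpdu1, and since the list has no strand it cannot be assigned to 1 of the 3 genes. Eif4a2 (chromosome 16, 23107517 to 23114209, plus strand, 6.69 kb), the paralogue with higher use in brain, had 1 peak of 3.17 kb at 23107433 to 23110606 that covered the TSS and 46.2% of the gene. Eif4a3 (chromosome 11, 119149677 to 119161403, minus strand, 11.7 kb), the helicase of the exon junction complex, had 3 peaks, at 119161207 to 119162897 over the TSS, at 119156218 to 119158431 inside the gene and at 119148333 to 119149713 over the TES, and was covered at 20.9%.

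Among the scaffolds, Eif4g1 (chromosome 16, 20668386 to 20692957, plus strand, 24.6 kb) was covered at 56.2% by 4 peaks. They lay at 20674045 to 20675169, 20677451 to 20684858, 20686472 to 20690915 and 20692118 to 20696833, the last over the TES and over the start of Fam131a. The gene-model TSS of Eif4g1 was not in a peak, whereas the start of another coding transcript was. Eif4g2 (chromosome 7, 118211499 to 118226544, minus strand, 15.0 kb), a scaffold without the eIF4E-binding site, had 1 peak of 4.46 kb over the TSS at 118223016 to 118227470 and 1 inside an exon at 118213023 to 118214397, together 32.6% of the gene.

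Eif4g3 (chromosome 4, 137548937 to 137764423, plus strand, 215 kb) had 10 peaks, the highest number of the 67 genes, which covered 11.7% of it. The widest was 15.5 kb, at 137569729 to 137585179 within an intron, and a peak of 1.38 kb at 137548317 to 137549694 covered the TSS. The remaining 8 peaks lay further downstream and measured 0.390 to 2.54 kb.

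Of the cap-binding proteins, Eif4e had 2 peaks (9.52% of the gene), with 1 over the TSS. Eif4e2, which binds the cap without joining eIF4G, had 5 peaks over 49.3% of its length. Eif4e3 had 3 peaks in a gene model of 409 kb whose limits come from a transcript with a retained intron, and its coding transcript of 41.6 kb held 0 peaks. Eif4b and Eif4h had 2 and 3 peaks over 40.4 and 28.9% of their length, and the TSS was in a peak in both.

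The 4 regulators of eIF4E had a median coverage of 53.4%, the highest of the 11 groups, and all 4 had a peak. Their single values were spread from 8.85 to 100%, with none near this median. Summed over bases, 31.2% of their sequence lay in peaks, close to the 31.1% of eEF2 and its kinase. Among other genes in the same strata, 48.7% had a peak. The binding proteins sequester eIF4E from the scaffold when they are not phosphorylated. Eif4ebp1 was covered at 89.0% by a peak of 13.8 kb at chr8:28369860-28383627, over the TSS, and a peak of 5.13 kb at chr8:28385320-28390451, over the TES. Eif4ebp2, the main form in brain, had a single peak of 2.43 kb over the TSS (8.85% of the gene). Eif4ebp3 (1.86 kb) lay wholly in a peak of 7.92 kb that also overlapped Ankhd1, Apbb3 and Sra1. Eif4enif1, the transporter of eIF4E, had 2 peaks inside the gene (17.9%), both also overlapping Drg1.

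**Figure D5:**
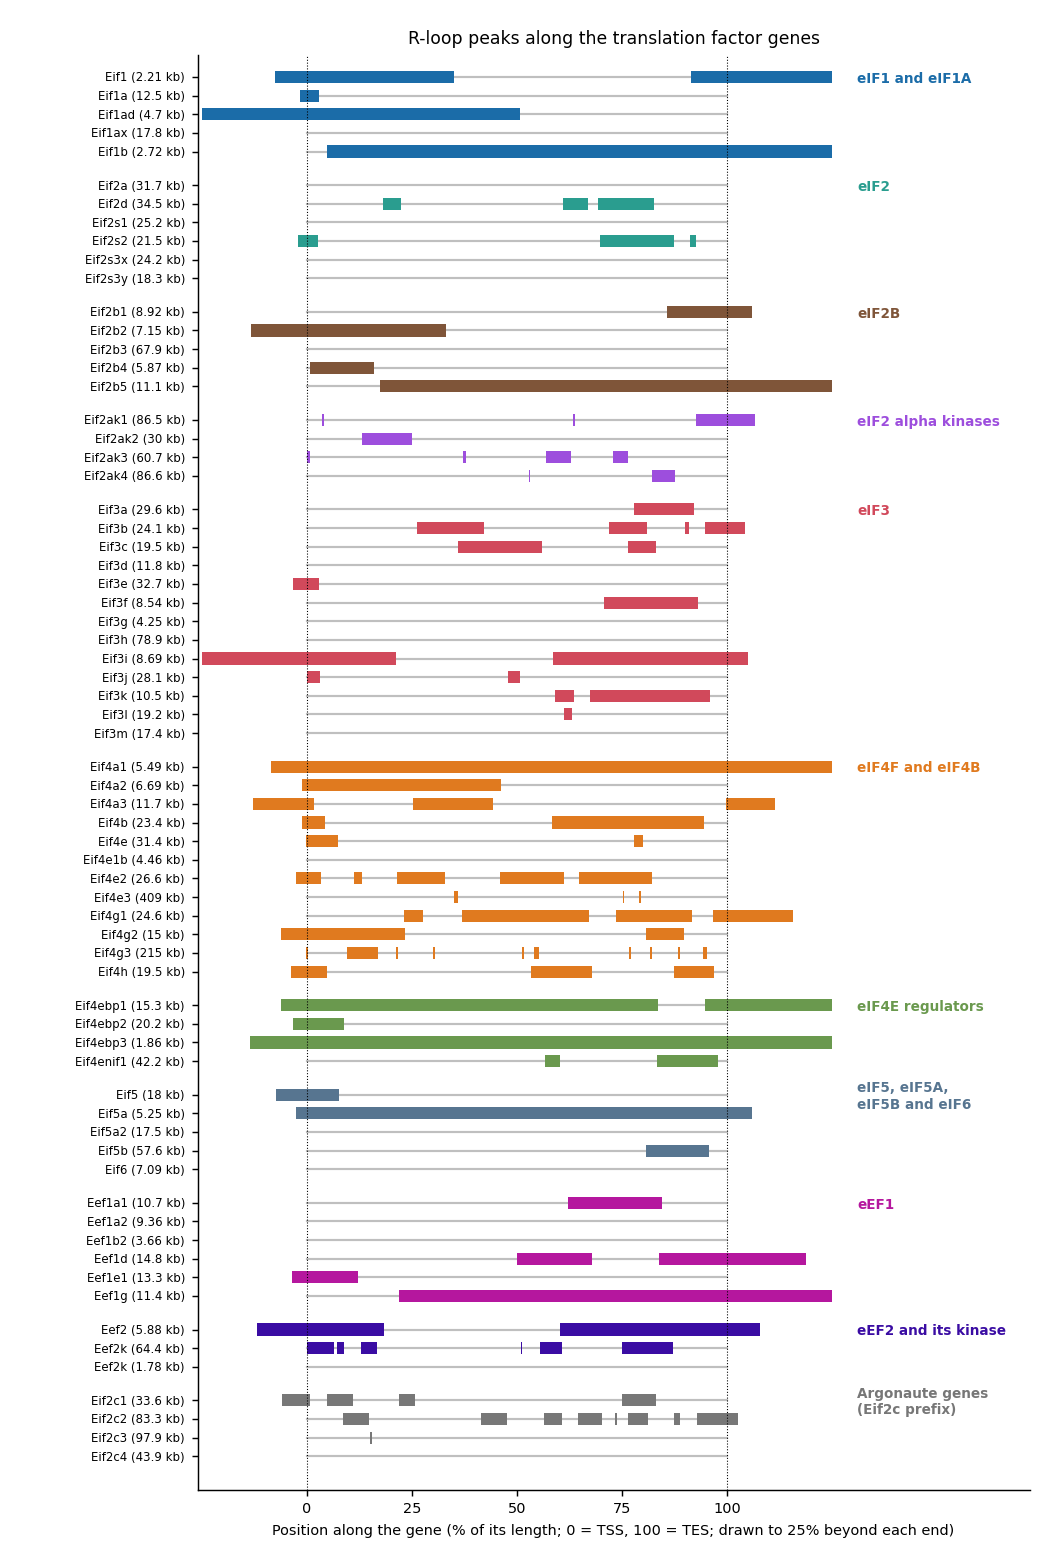
R-loop peaks (bars) along the 67 translation factor genes (grey lines), grouped by role, with position in % of gene length from the TSS at 0 to the TES at 100 and gene length in kb beside each symbol. Bars beyond 25% of the length on either side are cut there. The eIF4F genes show 9 bars over the TSS and the eIF2 genes 1.

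The factor eIF2 carries the initiator tRNA to the ribosome. Among the 6 genes with an eIF2 name, 2 (33.3%) had a peak and 1 (16.7%) had it over the TSS, shares near the 39.6 and 14.9% of all protein-coding genes, and the median coverage was 0%, as over all genes. Eif2s2, the β subunit, had 3 peaks over 21.9% of its length, with 1 over the TSS, and all 3 also lay within the limits of the gene a. Eif2d, a factor that is not a subunit of eIF2, had 3 peaks over 23.7%, of which 1 also overlapped Rassf5. Eif2s1, the α subunit that the kinases phosphorylate, and Eif2a, also not a subunit, had none. The γ subunit genes Eif2s3x and Eif2s3y lie on chromosomes X and Y and had no peak either. For Eif2s3x, 93.0% of exon 32-mers occur elsewhere in the genome, so reads from its exons can match several places.

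Of eIF2B, which recharges eIF2 with GTP, 4 of 5 subunit genes (80.0%) had 1 peak each. In the same strata, 47.8% of other genes had a peak. Eif2b5, the catalytic subunit, was covered at 82.5% by a peak of 13.7 kb at chr16:20500840-20514567 that crossed the TES. Eif2b2 had a peak of 3.32 kb over the TSS (33.1%), Eif2b1 a peak of 1.82 kb over the TES (14.4%) and Eif2b4 a peak of 0.899 kb near the TSS (15.3%) that also held the start of Snx17. Eif2b3, at 67.9 kb the longest of the 5, had none.

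All 4 eIF2α kinase genes had a peak, none over the TSS. Other genes in their strata had a peak in 51.1% and a peak over the TSS in 11.7%. Eif2ak3 (PERK, the sensor of endoplasmic reticulum stress) had 5 peaks over 11.2% of 60.7 kb. Eif2ak1 (the heme-regulated kinase) had 3, including a peak of 12.2 kb over the TES that also held the starts of Aimp2 and Pms2. Eif2ak4 (GCN2, the sensor of amino acid shortage) had 2, and Eif2ak2 (PKR, activated by double-stranded RNA) had 1. The share of length covered ranged from 5.73% in Eif2ak4 to 11.9% in Eif2ak2.

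In eIF3, the large complex that bridges the small subunit and eIF4G, 9 of 13 genes had a peak and 2 had it over the TSS, with a median coverage of 5.94%. The 2 of 13 (15.4%) over the TSS is near the 15.8% of other genes in the same strata, and the 9 of 13 with a peak (69.2%) compares to 45.4%. Eif3a, Eif3b, Eif3c, Eif3e, Eif3f, Eif3i, Eif3j, Eif3k and Eif3l had peaks, and Eif3d, Eif3g, Eif3h and Eif3m had none. Exon 32-mers that occur elsewhere in the genome made up 80.3% in Eif3j and 46.8% in Eif3e, and 38.7% in Eif3h and 25.6% in Eif3m. Eif3i had the highest coverage, 62.6%, with peaks over the TSS and the TES, the former shared with the start of the neighbour 2510006D16Rik. Eif3b had the most peaks, 4 over 31.4% of its length. Subunits of this 1 complex thus ranged from 0 to 62.6%.

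The factors eIF1 and eIF1A guide start codon choice. Of the 5 genes with an eIF1 name, 4 (80.0%) had a peak, compared to 39.1% in the same strata. Eif1 (2.21 kb) had a peak over each end, together 43.6% of it. Its paralogue Eif1b (2.72 kb) was covered at 95.3% by a peak of 4.27 kb at chr9:120401853-120406120 that began just after the TSS. Eif1ad shared a peak of 8.30 kb over its TSS with the start of Banf1 (50.6%). Eif1a had a peak of 0.584 kb over the TSS (2.98%) that also held the start of Tmed7, whereas Eif1ax on the X chromosome had none.

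In the group of eIF5, eIF5A, eIF5B and eIF6, the paralogues Eif5a and Eif5a2 differed. Eif5a (chromosome 11, 69730216 to 69735460, minus strand, 5.25 kb) encodes the hypusine-bearing factor that helps the ribosome through proline stretches, and it was fully covered by a peak of 5.69 kb at 69729905 to 69735590 that also reached Gps2. Eif5a2 (chromosome 3, 28680233 to 28697768, plus strand, 17.5 kb), a paralogue expressed in few normal tissues, had no peak within its limits, and the nearest was 4900 bp away. Eif5, the GTPase-activating protein of eIF2, had a peak of 2.71 kb over the TSS (7.70%). Eif5b, the subunit-joining GTPase, had 1 of 8.74 kb inside the gene (15.2%) that also overlapped Rev1, and Eif6, which keeps the ribosomal subunits apart, had none.

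The eEF1 complex delivers aminoacyl-tRNA, with eEF1A as the carrier and the other subunits in GTP exchange. Eef1a1 (chromosome 9, 78326256 to 78336958, minus strand, 10.7 kb) had 1 peak of 2.39 kb at 78327913 to 78330303, or 22.3% of the gene. This peak did not reach the 5′ end of the gene model, but it covered the start of the transcript Eef1a1-001, which spans 78326256 to 78329531. Of the Eef1a1 exon 32-mers, 58.1% occur elsewhere in the genome. Eef1a2 (chromosome 2, 180882358 to 180891719, minus strand, 9.36 kb), the form of mature neurons and muscle, had no peak, and the nearest was 28214 bp away.

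Eef1g, the γ subunit, was covered at 78.0% by the widest peak over any of these genes, 24.6 kb at chr19:9044046-9068609. This peak also held the start of Ahnak downstream of Eef1g, and 47.5% of Eef1g exon 32-mers occur elsewhere. Eef1d had 2 peaks over 33.8% of its length, of which 1 reached the start of Naprt1. Eef1e1, a scaffold of the tRNA synthetase complex in spite of its name, had a peak over the TSS (12.1%), and Eef1b2 had none.

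Eef2 (chromosome 10, 80639376 to 80645252, plus strand, 5.88 kb) encodes the translocase that moves the ribosome along the mRNA. A peak of 1.78 kb at 80638681 to 80640458 covered the TSS, and a peak of 2.80 kb at 80642917 to 80645717 covered the TES and overlapped 4930442H23Rik, together 58.2% of the gene. The kinase gene Eef2k (64.4 kb), whose product inactivates eEF2, had 6 peaks over 29.5% of its length, the widest 7.88 kb. Its second model of 1.78 kb lies within the limits of the first, at the 3′ end, and had none.

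The 4 Argonaute genes, which act in silencing by small RNAs, carried 13 peaks. A peak was present in 3 of 4 genes, and 63.2% of other genes in the same strata had one. The TSS was in a peak in 1 of 4, compared to 25.2% of other genes in these strata. Eif2c2, the Ago2 gene, had 8 over 36.4% of its 83.3 kb, at chr15:72929964-72938066, chr15:72941372-72942621, chr15:72947740-72951742, chr15:72953913-72954338, chr15:72956869-72961688, chr15:72964853-72968301, chr15:72975722-72980937 and chr15:73003067-73008218. The first of these, 8.10 kb wide, crossed the TES, and none reached the TSS. Eif2c1 had 4 peaks (18.7%), with 1 over the TSS, Eif2c3 had 1 of 0.585 kb (0.598%), and Eif2c4 had none, although Eif2c1, Eif2c3 and Eif2c4 lie next to each other on chromosome 4.

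The 17 gene models without a peak came from 9 of the 11 groups, with 4 each in eIF2 and eIF3 and none among the eIF2α kinases and the eIF4E regulators. The 3 longest were Eif3h (78.9 kb), Eif2b3 (67.9 kb) and Eif2c4 (43.9 kb), with the nearest peaks 17459, 22402 and 18934 bp away. In 5 of the 17 a peak lay within 5 kb of the gene, and the median distance was 18.9 kb. None of the 3 genes on chromosomes X and Y had a peak, compared to 50 of 64 on autosomes, while over all protein-coding genes the shares were 16.2% on X and Y and 40.6% on autosomes. Of 3 X-linked genes in other translation gene lists, Ddx3x had 3 peaks and Gspt2 had 1, each with the TSS in a peak, and Mcts1 had none.

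Some properties of the loci bear on how the peaks can be assigned. Of the 113 peaks, 19 overlapped another protein-coding gene as well and 10 held its TSS. When only peaks that overlap no other protein-coding gene were counted, 40 of 67 genes (59.7%) had a peak, compared to 32.2% of all protein-coding genes and 37.8% in the same strata. Among the 51 genes whose limits overlap no other protein-coding gene, 38 (74.5%) had a peak, and of the 16 that do overlap one, 12 had. Many factor genes have processed pseudogenes, so that exon reads can match several places. A peak was present in 13 of 18 genes with over 20% of exon 32-mers elsewhere in the genome (72.2%) and in 37 of 49 with fewer (75.5%). The TSS was in a peak in 10 of the 18 and in 14 of the 49, and the TES in 6 and 11. How far sequence copies enter the counts at gene ends was not tested.

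Small nucleolar RNAs, which guide RNA modification and are cut from introns, are annotated within 9 of the genes, Eef1b2, Eef2, Eif2ak3, Eif3a, Eif4a1, Eif4a2, Eif4g1, Eif4g2 and Eif5. Of these hosts, 8 had a peak and 5 had it over the TSS, with a median coverage of 32.6%. Of the 58 genes without a small nucleolar RNA, 42 had a peak and 19 had it over the TSS, with a median coverage of 13.2%. Over all protein-coding genes, 39.6% had a peak and 14.9% had the TSS in a peak. The hosts and the other genes were not matched for length, and hosts outside the translation factor genes were not counted.

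Other genes of translation were taken in 4 lists with 51 genes. Of these, 34 (66.7%) had a peak, compared to 39.6% of all protein-coding genes and 44.6% in their own strata. The TSS was in a peak in 15 (29.4%), compared to 14.9 and 14.8%, and the TES in 15 (29.4%), compared to 10.9 and 12.3%. Their median coverage was 7.75%. The cytoplasmic aminoacyl-tRNA synthetases, which charge tRNAs, had a peak in 14 of 20 genes, and the release and recycling factors, which end translation, in 7 of 9. The organellar factors had a peak in 5 of 9 and further initiation and elongation helpers in 8 of 13. Among the translation factors themselves, 9 belong to the mRNAs with a 5′ terminal oligopyrimidine tract, whose translation responds to mTOR. Of these 9, 7 (77.8%) had a peak and 3 had it over the TSS, with a median coverage of 22.4%. The shares were 74.6 and 35.8% for all 67 translation factor genes, and 39.6 and 14.9% for all protein-coding genes. No share in the same strata was computed for the 9 genes.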

How the data were processed

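Per the labels, NSPC DNA from 3 DRIP reactions was pooled for each library. The authors trimmed reads, aligned them to mm9, dropped duplicates and used a Hidden Markov Model to call peaks, and deposited 1 list of peak positions. The submitters' processing notes name Trim Galore 0.6.6. The aligner and the way replicates were joined are not given in the sources used here. The input library was not analysed here, and depth is unknown.

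Peaks were placed on mm9 and GENCODE M1 gene limits on chromosomes 1 to 19, X and Y, and an overlap counted from 1 bp. Shares in the same strata were weighted means over non-member genes, without random draws. Copies were exact matches of exon 32-mers on either strand. Python 3.11.15, numpy 2.4.6, pandas 2.3.3 and matplotlib 3.10.9 were used. Overlap, stratum and 32-mer steps were checked on simulated data.

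The genes, their grouping by role and the other lists were chosen with earlier results of these data known. Genes described in full were the 3 with the largest coverage, the most peaks and the widest peaks, the 3 longest without a peak, Eef2 and the paralogues of Eef1a, Eif4a, Eif4g and Eif5a; others are given by role, as all members of groups of up to 6 genes and as lists for larger ones. Sequence windows on chromosome 18 were not used here. As alternatives, peaks under 1 kb were left out, peaks closer than 1 kb were merged, and other member sets, overlaps, gene limits and strata were used.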

Additional observations from a re-analysis of the deposited data

How the results depend on the processing

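With peaks of at least 1 kb, 45 of 67 genes (67.2%) had a peak, compared to 31.8% of all protein-coding genes, and 5 genes lost every peak (Eif1a, Eif2b4, Eif2c3, Eif3j and Eif3l). Merging peaks closer than 1 kb left the share at 74.6%. Other member sets, overlaps and gene limits gave 68.7 to 78.1%, where all genes had 34.4 to 43.1%. An alternative added after seeing the data, which counted only peaks overlapping no other protein-coding gene, gave 59.7% (40 genes), compared to 32.2% of all genes. The share with the TSS in a peak was 31.3 to 46.3% under its alternatives, where all genes had 13.5 to 22.2%. The highest value of each range came from counting a peak within 2 kb of the TSS. The share with the TES in a peak went from 25.4% (17 genes) to 44.8% (30 genes) when a peak within 2 kb counted, where all genes had 21.8%. The share in the same strata was 47.5 to 51.2% with other strata or a GC window of 500 bp. The number of peaks in a single gene moved by over 1.5 times for 14 of 66 symbols with peaks of at least 1 kb and for 1 with merging. No paired analysis was possible because the labels carry no replicate numbers and the 1 list has no replicate column. Neither the spread between replicates nor the signal of a peak can be read from this list, so a gene without a peak may hold R-loops below detection.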

Other observations

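Of the 226 edges of peaks in translation factor genes, 64 (28.3%) lay within 100 bp of a site of the 5 restriction enzymes, compared to 20.1% of 452 edges shifted by 1 kb. The part of the digest in the coverage values was not tested.

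Beside the protein-coding genes, 5 annotated loci bear the same prefixes, the pseudogenes Eif4a-ps4, Eif3s6-ps1, Eif3s6-ps2 and Eif5al3-ps and the processed transcript Eif2c5. None of these 5 loci overlapped a peak.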
